A study of Mus musculus with 8 samples.

Results

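The genes described here encode the nuclear subunits of the mitochondrial respiratory chain, together with cytochrome c and the assembly factors that share their gene name stems. They were chosen by symbol alone among the protein-coding genes of the count table: symbols beginning with *Nduf*, *Cox4* to *Cox8*, *Atp5* or *Uqc*, and *Sdha*, *Sdhb*, *Sdhc*, *Sdhd* and *Cycs*. This gave 105 genes of the 55416 in the table: 40 of complex I, 4 of complex II, 8 of complex III, 19 of complex IV, 19 of complex V, cytochrome c, and 14 assembly factors (*Ndufaf* and *Uqcc*). Of the 105, 97 passed the filter on low counts and were tested among 13147 genes in all.

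The study removed *Rora*, which encodes the nuclear receptor RORα, from mouse epidermis and sequenced poly(A) RNA of the dorsal epidermis at postnatal day 4. The mutants, called RoraEKO, carry floxed *Rora* alleles and the K14-Cre transgene, in which the keratin 14 promoter drives Cre in basal keratinocytes and hence in their descendants, while other cells of the sheet keep the gene. The controls are labelled WT, and the paper calls them control littermates. There were 4 libraries per genotype: control A1, B1, C1 and C6, and RoraEKO A3, B4, C2 and C3, the letters and numbers being those of the sample titles, whose meaning is not given in the sources used here. The paper counts mice per genotype and their number equals that of the libraries, while the labels do not tie a library to an animal, so the p-values measure the spread between these libraries.

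Library totals ran from 17286926 to 26705545 counts, and levels below are CPM (counts scaled to the library size) on edgeR's TMM-scaled library sizes. *Rora* itself was at 158, 193, 187 and 309 CPM in the controls and at 154, 189, 237 and 206 CPM in RoraEKO (log2 fold change -0.11, edgeR adjusted p = 0.877). A gene-level count sums all exons, and which exon is floxed is not given in the sources used here, so these counts do not check the labels. *Xist* reached 416 CPM in control C1 and 527 CPM in control C6 and did not exceed 0.0547 CPM elsewhere, so 2 controls differ in sex from the 6 remaining libraries. The calls without them are given where they change. The differentiation keratins *Krt1* and *Krt10* stood highest among 8 keratinocyte markers. The marker list summed to 44700 to 70900 CPM in the controls and 85700 to 107000 CPM in RoraEKO, without overlap between the genotypes, although 3 of the 8 had log2 fold changes below 0 (lowest -0.41), 5 were above 0 and none passed edgeR's test (lowest adjusted p = 0.273). All 10 skeletal muscle markers together summed to at most 12.1 CPM in any library. The 3 brown adipocyte markers summed to 17.4 to 149 CPM in the controls and 11.2 to 57 CPM in RoraEKO. The uncoupling protein gene *Ucp1* was a small part of that sum in every library. The 6 adipocyte markers summed to 60 to 300 CPM in the controls and 91.4 to 159 CPM in RoraEKO, nearly all of it *Fabp4*, while *Adipoq*, *Plin1* and *Lep* did not exceed 5 counts in any library.

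The respiratory chain carries electrons from NADH (complex I) and succinate (complex II) through ubiquinone to complex III, by cytochrome c to complex IV, and on to oxygen. Complexes I, III and IV pump protons across the inner mitochondrial membrane, and complex V, the ATP synthase, uses their return to make ATP. Most subunits are encoded in the nucleus, and a small set, all of them in complexes I, III, IV and V, is encoded by mitochondrial DNA. In epidermis, keratinocytes lose their mitochondria as they become corneocytes.

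Most members were a little lower in RoraEKO, and very few passed the test. The log2 fold change was below 0 for 87 of the 97 tested members, against 56.0% of all tested genes, and its median was -0.17, against -0.04 over all tested genes. With cutoffs of adjusted p 0.05 and fold change 1.5, *Cox7c* and *Ndufv3* fell and no member rose. That is 2 of 97 members lower, where 3.22% of all genes were lower, and 0 of 97 higher, where 2.3% were higher, so the count past the cutoffs is near the background. With no fold cutoff *Ndufb1* and *Sdhc* were added, giving 4 of 97 lower against 3.55% of all genes and 0 higher against 2.48% in edgeR, while DESeq2 called 1 member higher (*Ndufa4*). At an unadjusted p under 0.05, 14 members were lower, where 10.3% of all genes were, and 1 was higher, where 7.92% were. With 1 library left out in turn, the lower count ran from 5 without RoraEKO C2 (7.34% of all genes) to 19 without RoraEKO B4 (9.18%). It was 24 with *Xist* as a covariate (10.3%) and 21 with the first title letter as a term (13.3%). The higher count was 1 or 2 in these fits. In 14 members every RoraEKO library was below every control, which was so for 7.53% of all genes, and in 1 member every RoraEKO library was above, which was so for 5.4%. In the 6 libraries that lack *Xist*, edgeR called no member by either rule, with 12 lower and 2 higher at an unadjusted p under 0.05, against 7.43% and 9.17% of all genes in that fit. The log2 fold changes there were -0.61 for *Cox7c*, -0.85 for *Ndufv3*, -0.51 for *Sdhc* and -0.43 for *Ndufb1*, against -0.63, -0.79, -0.49 and -0.46 with all libraries.

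**Figure D1:**
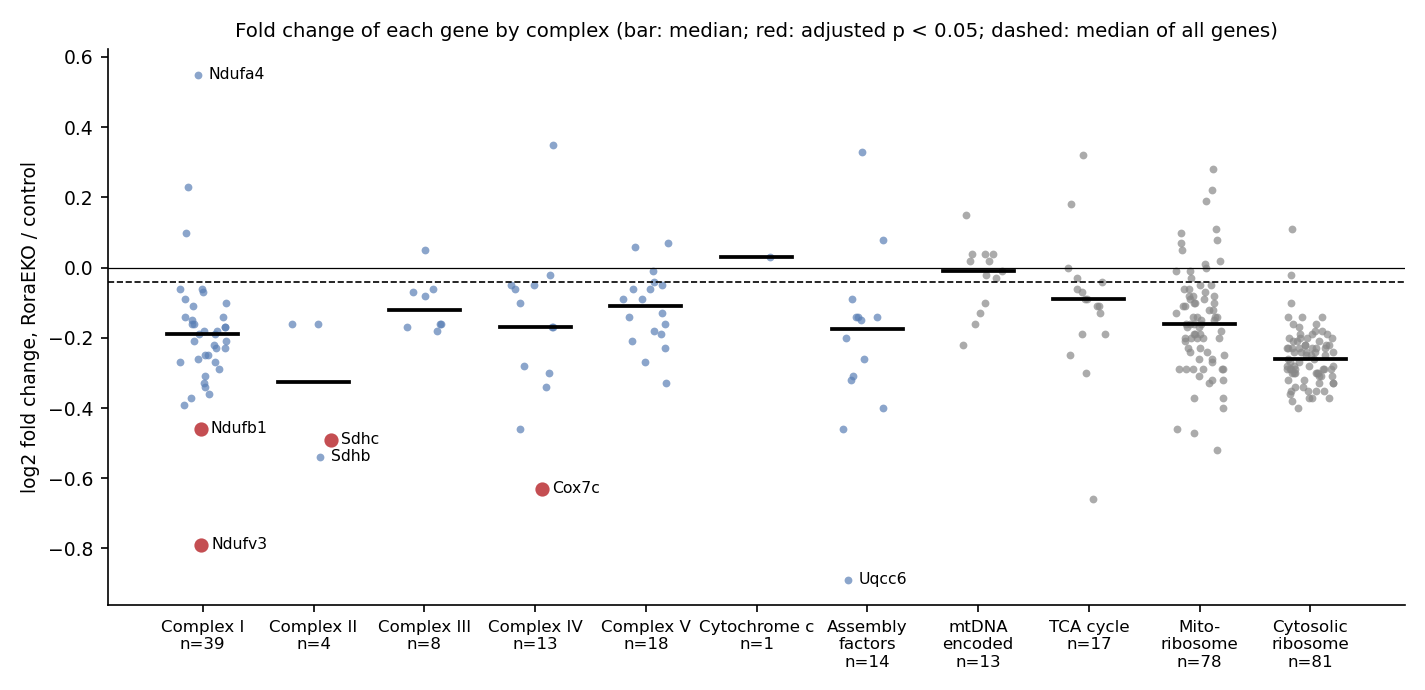
Log2 fold change of RoraEKO over control (vertical axis) for each tested gene (points), grouped by complex and, in grey, by comparison list, with the number of genes under each name. Black bars are medians, red points have an adjusted p under 0.05, the dashed line is the median of all tested genes at -0.04, and the medians of complexes I to V lie between -0.33 and -0.11.

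The median log2 fold change was -0.19 for the 39 tested genes of complex I (36 below 0), -0.33 for the 4 of complex II (all 4 below 0), -0.12 for the 8 of complex III (7 below 0), -0.17 for the 13 of complex IV (12 below 0) and -0.11 for the 18 of complex V (16 below 0). The assembly factors had a median of -0.17, with 12 of 14 below 0, and *Cycs* stood at 0.03. Leaving out 1 library moved some of these medians close to 0: complex III to -0.00 without control A1 or RoraEKO C2, complex IV to -0.04 without control A1, complex V to -0.01 without RoraEKO C2 and -0.03 without control A1, and complex II to -0.17 and complex I to -0.10 without RoraEKO C2. No difference between complexes was tested. The controls were themselves spread: the median deviation of the members from the control mean, on the log2 scale, was 0.14 in control A1, 0.03 in B1, -0.00 in C1 and -0.16 in C6. In RoraEKO it was -0.05 in A3, -0.08 in B4, -0.24 in C2 and -0.30 in C3. RoraEKO A3 and B4 thus lay within the control range, and C2 and C3 lay below it. Without RoraEKO C2 the number of members below 0 was 67 of 97 and their median -0.07, against 0.03 for all genes in that fit, and without control A1 their median was -0.11.

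Complex I is the largest of the chain and holds nuclear core subunits, which carry the flavin and the iron-sulfur clusters, and many accessory ones. *Ndufv3* encodes an accessory subunit at the tip of the NADH-oxidizing module (ENSMUSG00000024038, chromosome 17 of GRCm39, 31739052 to 31751735, plus strand). It was at 43.5, 41.6, 40.5 and 31 CPM in the controls and at 26.1, 27.8, 17.8 and 19 CPM in RoraEKO. All 4 RoraEKO libraries lay below the lowest control. Mean and SD were 39.2 ± 5.55 CPM in the controls and 22.7 ± 5.0 CPM in RoraEKO (n = 4 each), and the fall of 0.79 on the log2 scale (SE 0.194, adjusted p = 0.0308 in edgeR's quasi-likelihood test) was the largest of any tested subunit of the 5 complexes. This call was lost in 6 of 18 alternative analyses, namely in the 6 libraries that lack *Xist* and without RoraEKO A3, C2 or C3 or control B1 or C1. Gm38099 overlaps *Ndufv3* on the opposite strand, as Cpsf2 and Gm59441 do *Ndufb1*, and Pdcd11 and Taf5 do *Atp5mk*. An opposite-strand gene overlaps 70 of the 105 members, and whether the authors' counting used strand is not given in the sources used here.

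*Ndufb1*, an accessory subunit of the membrane arm (ENSMUSG00000113902, chromosome 12, 101934343 to 101943331, minus strand), showed the narrowest spread of the members that fell. It was at 28.5, 28.9, 28.5 and 27.1 CPM in the controls and at 20.4, 21.6, 20.7 and 19.4 CPM in RoraEKO. The gap between the genotypes was several times the SD of either, at 28.3 ± 0.805 against 20.5 ± 0.884 CPM (n = 4 each). The log2 fold change of -0.46 (SE 0.0373, adjusted p = 0.0220) is a fall of 27.3% by edgeR's quasi-likelihood test, under the 1.5-fold cutoff. The adjusted p stayed under 0.05 in 8 of 18 alternatives. The members of complex I with genotypes that did not overlap also included *Ndufs4*, *Ndufb3*, *Ndufv2*, *Ndufa7*, *Ndufa3*, *Ndufb4* and *Ndufs3*, of which all but *Ndufv2* and *Ndufs3* are named because their values stood apart. Their log2 fold changes ran from -0.39 to -0.18, with adjusted p from 0.09 to 0.38, so none passed the test on its own. With the first letter of the title as a term, *Ndufb3* and *Ndufs4* passed at any fold (edgeR adjusted p = 0.0437 and 0.0453). *Ndufs4*, an accessory subunit of the matrix arm, was at 17.3 to 21.0 CPM in the controls and 13.2 to 16.7 CPM in RoraEKO. *Ndufb3*, of the membrane arm, was at 36.7 to 40.4 CPM in the controls and 26.7 to 34.6 CPM in RoraEKO.

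No core subunit named here passed the test. *Ndufs1*, which carries several of the iron-sulfur clusters, was at 23.8 ± 1.9 CPM in the controls and 25.4 ± 3.65 CPM in RoraEKO. *Ndufv1*, the flavin-binding subunit, was at 32.7 ± 2.29 and 31.4 ± 5.2 CPM. *Ndufv2*, which pairs with it, was at 35.4 ± 4.42 and 28.1 ± 2.15 CPM, with an adjusted p of 0.173 in the edgeR test.

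*Ndufa4* had the largest positive log2 fold change of the members, 10 of which were above 0. It was first assigned to complex I and is now regarded as a subunit of complex IV, and it is counted in complex I here by its symbol. It was at 86.5, 103, 73.6 and 116 CPM in the controls and at 117, 146, 163 and 130 CPM in RoraEKO (ENSMUSG00000029632, chromosome 6, 11897630 to 11907496, minus strand). Every RoraEKO library exceeded every control, although control C6 and RoraEKO A3 differed by little. The means were 94.8 ± 18.6 and 139 ± 19.9 CPM (log2 fold change 0.55, SE 0.177, edgeR adjusted p = 0.0975), which did not pass. DESeq2 on the same genes gave an adjusted p of 0.0322, the lowest of the 18 alternatives, and the highest was 0.225. Without control C6 *Ndufa4* passed both cutoffs in edgeR, with a log2 fold change of 0.72 and an adjusted p of 0.0472. Its paralog *Ndufa4l2*, a gene induced by hypoxia that is known to restrain complex I, was at 214, 205, 254 and 154 CPM in the controls and at 176, 249, 129 and 102 CPM in RoraEKO. These overlapped, with a log2 fold change of -0.34 and an adjusted p of 0.597. The ratio of *Ndufa4l2* to *Ndufa4* within a library was 2.47, 1.99, 3.46 and 1.33 in the controls and 1.5, 1.7, 0.794 and 0.787 in RoraEKO. The mean log2 ratio was 1.13 in the controls and 0.17 in RoraEKO, a difference of -0.96 (exact two-sided permutation test p = 0.0857, 0.5 after Benjamini-Hochberg adjustment over 7 isoform ratios, with 0.0286 the smallest p that 4 against 4 allows).

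**Figure D2:**
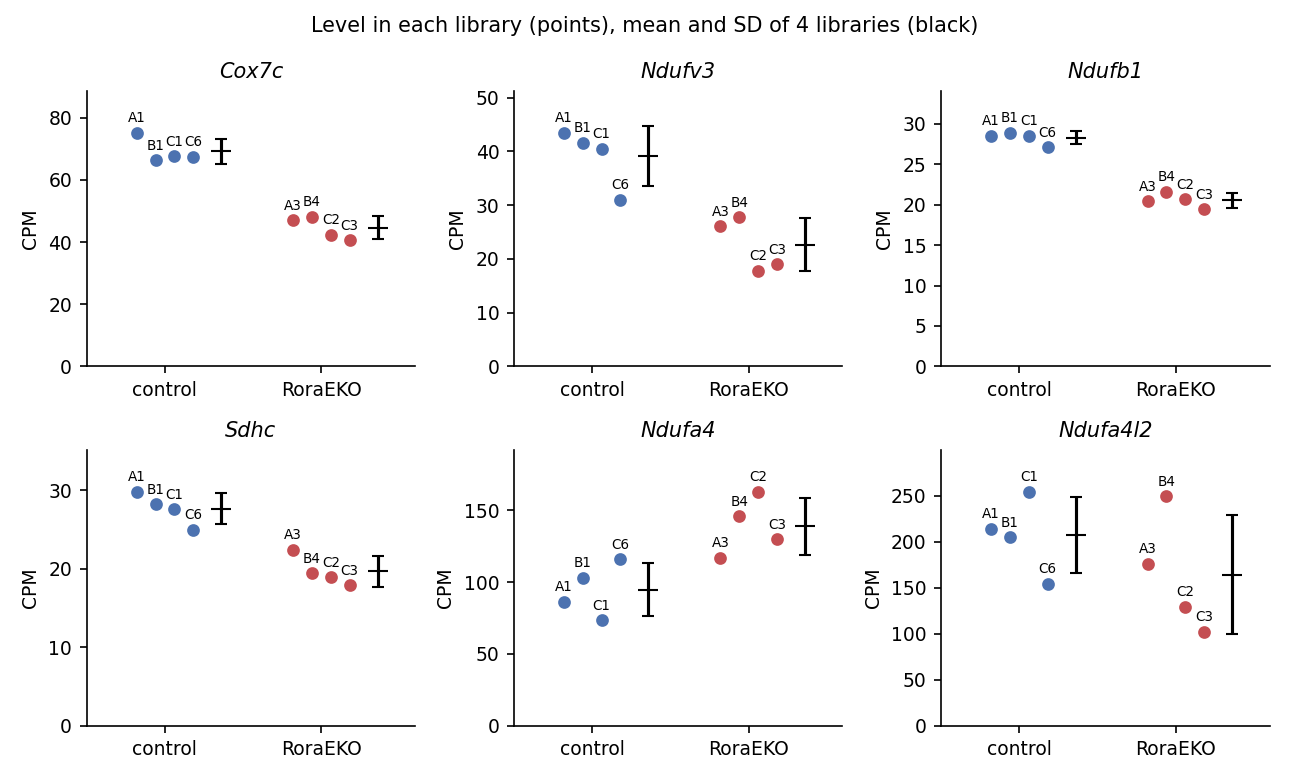
CPM of 6 members in each library (points, labelled by title; vertical axes start at 0), with the mean and SD of the 4 libraries of each genotype in black. The genotypes do not overlap for *Cox7c*, *Ndufv3*, *Ndufb1*, *Sdhc* and *Ndufa4*, and they overlap for *Ndufa4l2*.

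Complex II, succinate dehydrogenase, is wholly nuclear and also works in the tricarboxylic acid cycle. *Sdhc* encodes a membrane anchor that binds heme and ubiquinone (ENSMUSG00000058076, chromosome 1, 170954732 to 170978223, minus strand). It was at 29.8, 28.2, 27.6 and 25 CPM in the controls and at 22.4, 19.4, 18.9 and 17.9 CPM in RoraEKO, with no overlap. The means of 27.6 ± 2.0 and 19.6 ± 1.92 CPM (SD, n = 4 each) differed by -0.49 on the log2 scale (SE 0.0863, edgeR adjusted p = 0.0356), a fall of 29%, and the gene kept an adjusted p under 0.05 in 8 of 18 alternatives. The other anchor, *Sdhd*, was at 9.43 ± 1.15 CPM in the controls and 8.45 ± 0.516 CPM in RoraEKO, and the flavoprotein *Sdha* at 46.5 ± 3.92 and 41.5 ± 6.33 CPM. Neither difference passed.

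The iron-sulfur subunit *Sdhb* varied more between libraries than any other core subunit. It was at 101, 42.1, 38.3 and 21 CPM in the controls and at 57.8, 34.4, 20.2 and 27.2 CPM in RoraEKO. The highest level lay in control A1, and the genotypes overlapped widely. The coefficient of variation was 69% in the controls and 46.7% in RoraEKO, where the median over tested members was 12.7% and 13.6%. Control A1 was also the library with the most *Fabp4* (299 CPM, against 59.2 to 159 CPM in the others) and *Elovl3* (97.9 CPM, against 2.51 to 25.5 CPM), both lipid metabolism genes of the fixed marker lists, and the part of the cells behind them in the level of *Sdhb* was not tested. The log2 fold change of -0.54 (SE 0.566, edgeR adjusted p = 0.637) was between -1.08 and 0.05 in the 18 alternatives.

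Complex III showed no member past the edgeR test or at an unadjusted p under 0.05, and its lowest adjusted p was 0.518. *Uqcrh*, the hinge protein that helps cytochrome c bind, was at 113 ± 9.93 CPM in the controls and 102 ± 5.0 CPM in RoraEKO. Its genotypes did not overlap at full precision, although the lowest controls and the highest RoraEKO library all round to 106 CPM. The large matrix-facing subunits *Uqcrc1* and *Uqcrc2* were at 67.5 ± 10.9 and 39 ± 3.36 CPM in the controls and at 69.9 ± 14.1 and 34.5 ± 6.04 CPM in RoraEKO. The Rieske iron-sulfur protein *Uqcrfs1* was at 35.1 ± 4.07 and 31.2 ± 2.9 CPM. Cytochrome c, *Cycs*, was at 36, 35.3, 43 and 32.8 CPM in the controls and at 37.1, 43.4, 32 and 37.4 CPM in RoraEKO, which is the same range. *Cyc1*, the nuclear heme subunit of complex III, whose symbol falls outside the rule, was at 50.4 ± 4.76 and 53.8 ± 10.4 CPM.

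*Cox7c*, a small subunit of complex IV that spans the membrane, was the member with the lowest adjusted p. It was at 75.2, 66.3, 67.6 and 67.5 CPM in the controls and at 47.1, 48.2, 42.4 and 40.6 CPM in RoraEKO (ENSMUSG00000017778, chromosome 13, 86189246 to 86195023, minus strand). The highest RoraEKO library lay well under the lowest control. The means were 69.2 ± 4.08 and 44.6 ± 3.65 CPM (SD, n = 4 each), a fall of 35.6% (log2 fold change -0.63, SE 0.0722, edgeR adjusted p = 0.00694). The adjusted p was under 0.05 in 16 of 18 alternatives and rose to 0.0506 without RoraEKO C2 and to 0.0755 in the 6 libraries that lack *Xist*. In 7 of 8 libraries its expected count was more than 0.005 from a whole number, so some of its reads were shared with another locus by the authors' counting.

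No other gene counted here in complex IV had an adjusted p under 0.373 in edgeR's test. *Ndufa4*, counted in complex I by its symbol, was at 0.0975. With *Ndufa4* counted in complex IV instead, the median log2 fold changes were -0.20 for complex I and -0.13 for complex IV. *Cox4i1*, the common isoform of the regulatory subunit, was at 123 ± 21 CPM in the controls and 99.8 ± 17.6 CPM in RoraEKO. *Cox5a*, which binds next to it, was the steadiest member in the controls, at 28.8, 28.9, 29 and 28.4 CPM, and it was at 28.6, 29.8, 30.3 and 24.9 CPM in RoraEKO. *Cox5b* was at 46.6 ± 6.61 and 43.4 ± 4.83 CPM, and *Cox7b*, one of the 3 tested members on chromosome X, at 60.5 ± 1.15 and 58.4 ± 6.01 CPM.

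Several complex IV subunits exist as tissue isoforms, and the epidermis used the ubiquitous ones. *Cox6a1* was at 125 ± 14.1 CPM in the controls, whereas its striated muscle form *Cox6a2* reached 12 counts at most in any library. *Cox7a2* was at 59.9 ± 7.6 CPM, whereas *Cox7a1*, of muscle and brown fat, reached 16 counts at most. *Cox8b* reached 1 count, and *Cox8c* and *Cox7b2*, known from testis, had none, while *Cox8a* was at 72.7 ± 22.6 CPM. The lung and hypoxia isoform *Cox4i2* was at 12.3, 4.43, 2.41 and 0.826 CPM in the controls and at 6.92, 4.31, 2.36 and 1.1 CPM in RoraEKO, so the spread within the controls covered all RoraEKO libraries. The testis isoform *Cox6b2* was at 1.16 CPM or less, against 119 ± 7.5 CPM for *Cox6b1* in RoraEKO. *Cox7a2l*, which joins complexes III and IV into supercomplexes, was at 79.4 ± 13.4 and 65.3 ± 8.68 CPM. Of the 7 isoform ratios compared between the genotypes, none had an exact p under 0.0857.

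Complex V had no member past the edgeR test. Its lowest adjusted p, 0.11, was that of *Atp5mk*, a small membrane protein of the synthase dimer and the 1 member of the complex with an unadjusted p under 0.05. *Atp5mk* was at 37.3, 40.2, 39.7 and 33.1 CPM in the controls and at 31.1, 31, 28.2 and 28.9 CPM in RoraEKO, which did not overlap (log2 fold change -0.33, SE 0.073). The catalytic β subunit *Atp5f1b* was at 276 ± 14.9 CPM in the controls and 287 ± 63.5 CPM in RoraEKO, and the α subunit *Atp5f1a* at 244 ± 11.4 and 224 ± 38.4 CPM. Both spread more in RoraEKO, with B4 highest at 378 CPM of *Atp5f1b* and 272 CPM of *Atp5f1a*. The 3 genes *Atp5mc1*, *Atp5mc2* and *Atp5mc3* encode the same c-ring protein, and their log2 fold changes were -0.14, -0.27 and -0.23. *Atp5if1*, the inhibitor that stops the synthase from running backwards, was at 90.4 ± 12.6 and 94.5 ± 11.6 CPM. Fractional counts, which mark reads shared with other loci, were found in 16 tested members, and in all 8 libraries in 7, among them *Atp5mc1*, *Atp5mc2*, *Ndufb4* and *Cycs*, so their separate levels are uncertain. The table holds 2 identifiers for *Atp5po*, one of which had no counts.

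**Figure D3:**
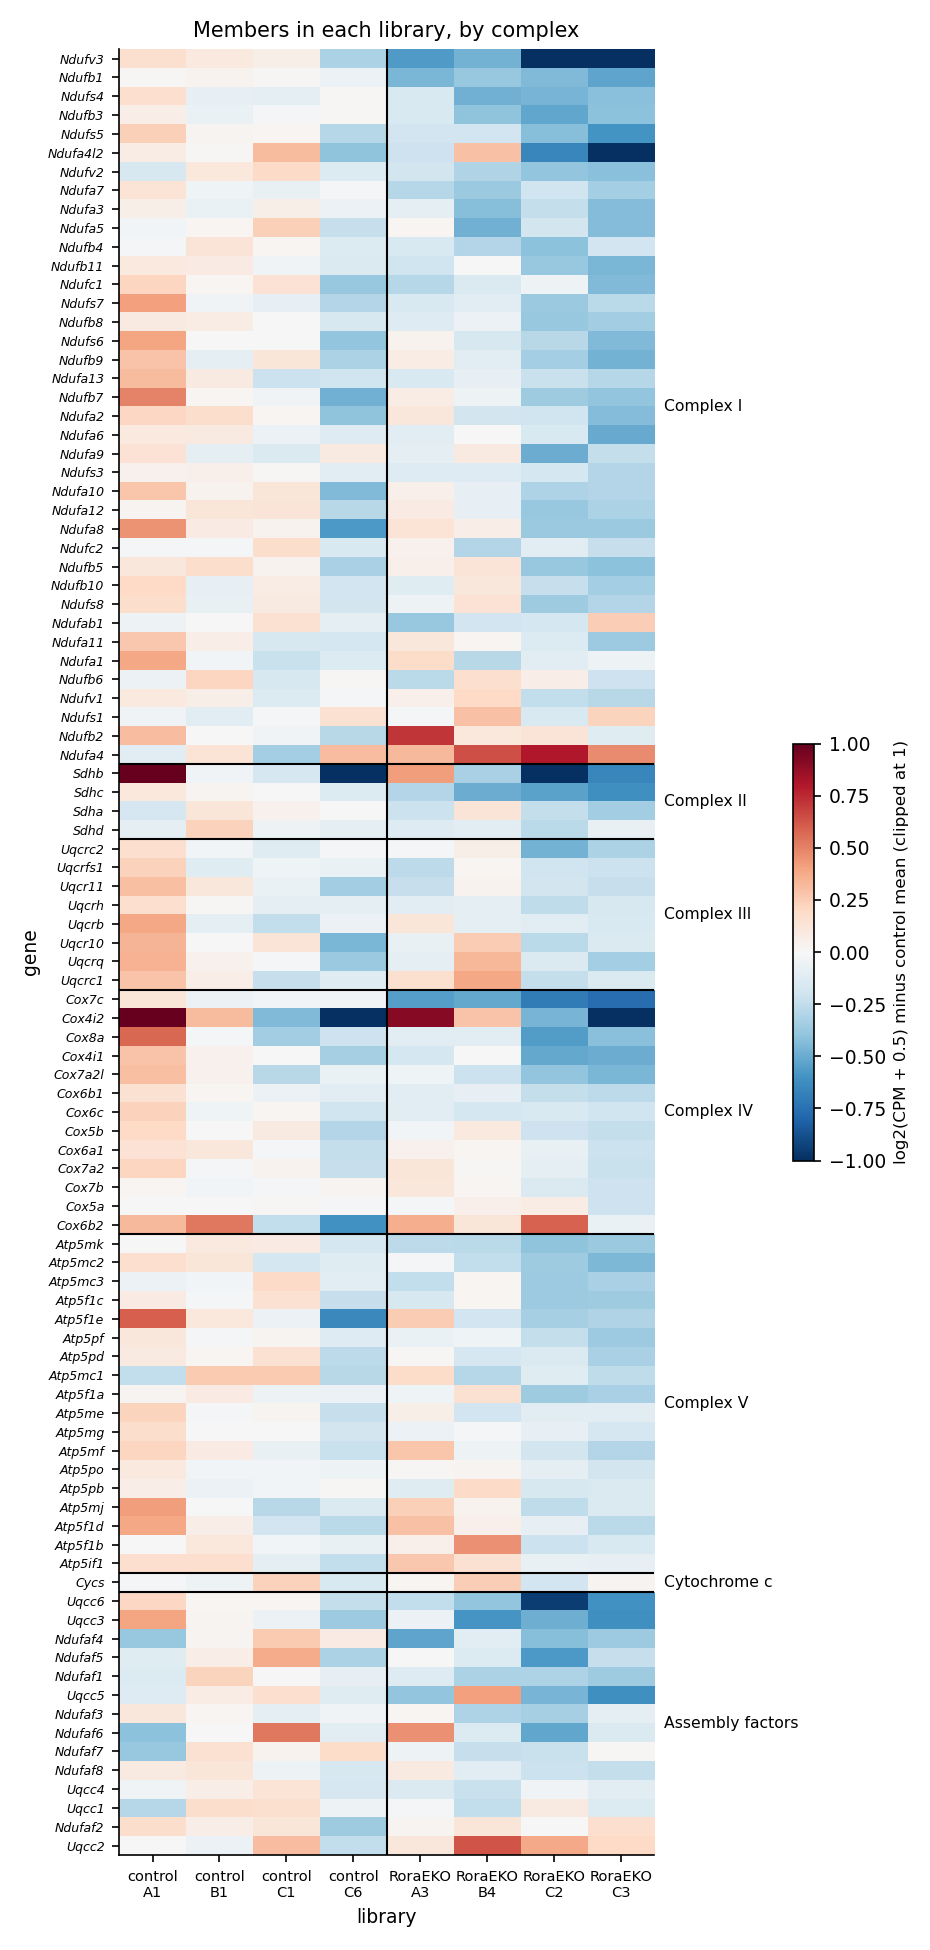
Each row is 1 of 96 tested members, ordered by log2 fold change within its complex, and each column 1 library. Color gives log2(CPM + 0.5) minus the control mean, clipped at 1 in either direction: most rows are blue in RoraEKO C2 and C3, and *Ndufa4*, at the foot of complex I, is red in all 4 RoraEKO libraries.

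Levels between genes were compared per kilobase of the canonical transcript, as the mean CPM of all 8 libraries. The median over tested genes was 95.2 CPM per kb for complex V, 72.4 for IV, 39.1 for III, 22.3 for I and 8.98 for II. With the median length of the coding transcripts in place of the canonical one, complexes IV and V changed places, at 90.4 and 87.0 CPM per kb. By canonical transcript *Ndufa4* had the highest level at 221 CPM per kb, followed by *Cox6a1* at 214, and *Ndufa4l2* and *Cox6b1* at 192 each. By the median coding transcript the order was *Cox6b1* at 236, *Cox6a1* at 214 and *Ndufa4* at 199. *Atp5me* led complex V at 184 CPM per kb, *Uqcrb* complex III at 138 and *Sdha* complex II at 14.3. Assembly factors, which act on the way to the finished complex, had a median of 2.94 CPM per kb, with *Uqcc2* as the exception at 60.6.

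**Figure D4:**
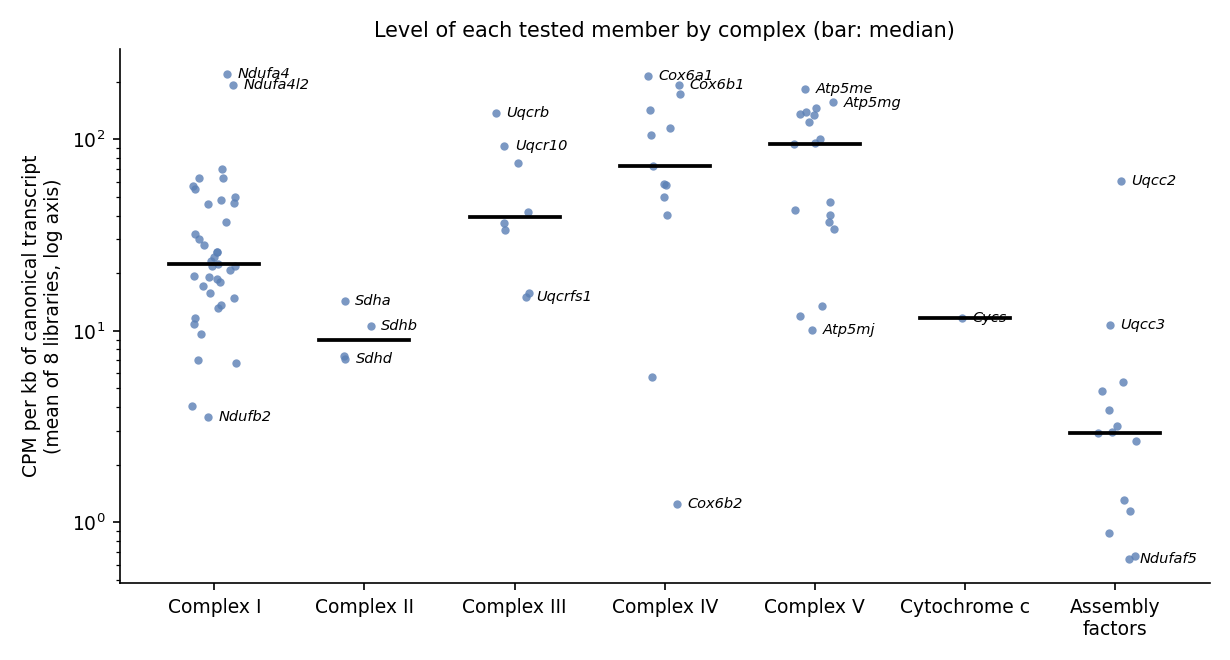
Mean CPM of the 8 libraries per kb of canonical transcript (vertical axis, log scale) for each tested member (points) by complex, with the median as a bar. Complexes V and IV hold the highest medians (95.2 and 72.4 CPM per kb), complex II the lowest of the 5 complexes (8.98), and *Ndufa4* the highest single level on this length (221).

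None of the 14 assembly factors passed the edgeR test. At an unadjusted p under 0.05, 2 were lower, where 10.3% of all tested genes were, so this count is near the background. *Uqcc6*, a small protein needed for complex III, had the most negative log2 fold change of all members, -0.89 (SE 0.29, adjusted p = 0.222, edgeR), at 1.26, 1.04, 1.04 and 0.788 CPM in the controls and 0.783, 0.657, 0.289 and 0.499 CPM in RoraEKO. The genotypes touch but do not overlap, and a level near 1 CPM leaves a wide counting error. *Uqcc2* stood on the other side, at 28.3 ± 4.79 and 35.7 ± 5.89 CPM. A separate list of 38 other assembly factors had a median log2 fold change of -0.09, with 27 below 0. *Higd2a*, which takes part in building complex IV and the supercomplexes, was the only gene of that list to pass: it was at 39.1, 42.1, 39.5 and 37.3 CPM in the controls and 26.4, 26, 28.8 and 22.9 CPM in RoraEKO (log2 fold change -0.60, edgeR adjusted p = 0.00982). *Cox17*, a copper chaperone, was at 15.8 ± 2.7 and 11.0 ± 0.644 CPM and did not overlap, with an adjusted p of 0.0633.

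The subunits encoded by mitochondrial DNA showed no common direction. Of these 13 genes 7 were below 0 and 6 above, with a median log2 fold change of -0.01 and a lowest adjusted p of 0.842 (edgeR, none at an unadjusted p under 0.05). That median took either sign in other fits: it was -0.11 without control A1 and with library size alone, -0.10 with the first title letter as a term, -0.09 without RoraEKO A3, 0.25 without RoraEKO B4, 0.19 without control C6, 0.25 with *Xist* as a covariate and 0.29 in the 6 libraries that lack *Xist*. The CPM of these 13 genes summed to 131400, 159900, 178900 and 230800 in the controls and 234400, 81080, 220500 and 173000 in RoraEKO, with RoraEKO B4 lowest of all. Such sums rest on TMM-scaled library sizes and are not shares of a library: over all tested genes they ran from 925600 to 1127000 CPM. The nuclear members together summed to 5672, 5136, 4966 and 4410 CPM in the controls and 4960, 5094, 4243 and 4087 CPM in RoraEKO. Within the controls the library with the larger nuclear sum had the smaller mitochondrial one, a description of 4 libraries. The RoraEKO libraries did not keep this order, with A3 highest in the mitochondrial sum and above C2 and C3 in the nuclear one. The spread of the mitochondrial sum between libraries of 1 genotype was wider than the difference between the genotype means.

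Other nuclear lists were mostly below 0 too. The 78 genes of the mitochondrial ribosome had a median log2 fold change of -0.16, with 67 below 0, and the 81 tested genes of the cytosolic ribosome one of -0.26, with 80 below 0. The cytosolic ribosome median was -0.13 without control A1, -0.15 without RoraEKO C2 and -0.48 with *Xist* as a covariate. None of either list passed the edgeR test, with lowest adjusted p of 0.0997 and 0.117. At an unadjusted p under 0.05, 7 and 3 genes were lower, where 10.3% of all tested genes were. In the 8 libraries the median deviation of the cytosolic ribosome genes was 0.35, 0.06, -0.10 and -0.34 in the controls and 0.04, -0.20, -0.39 and -0.47 in RoraEKO, an order close to that of the members. Transcript length moved with the fold change too: members are short, with a median canonical transcript of 1150 bases against 3386 for all tested protein-coding genes. Among the 602 other protein-coding genes under 1000 bases the median log2 fold change was -0.12 with 63.5% below 0, and among the 45 members of that length it was -0.17 with 40 below 0. In transcripts of 4000 bases or more the medians were -0.01 for 4750 other genes and -0.26 for 6 members. None of the cell type markers passed the edgeR test. The summed keratinocyte markers, set mostly by *Krt1* and *Krt10*, were higher in every RoraEKO library (*Krt1* at 44200 to 52400 CPM against 19700 to 38600 CPM in the controls). All 3 erythroid markers were above 0, with a median log2 fold change of 1.77 (lowest adjusted p = 0.165, edgeR). Their sums were 31.8 to 215 CPM in the controls and 83.5 to 665 CPM in RoraEKO, which overlap. The 3 T cell markers were above 0 with a median of 0.43, at sums of 10.8 to 27.9 CPM in the controls and 8.42 to 40.9 CPM in RoraEKO, which overlap. All 4 melanocyte markers were below 0, with a median log2 fold change of -0.82 (lowest adjusted p = 0.104, edgeR) and sums of 23.9 to 54 CPM in the controls and 16.4 to 32.2 CPM in RoraEKO, which overlap. The 3 Langerhans cell markers were below 0 with a median of -0.47, at sums of 50.8 to 154 CPM in the controls and 53.4 to 70.5 CPM in RoraEKO, which overlap too. The part of length, of the ribosomal genes and of these cells in the members' tilt was not tested. In bulk epidermis fewer cells of a type and less RNA per cell cannot be told apart.

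The known regulators of the respiratory genes did not pass the test either: of 17 listed, 15 were tested, with 10 below 0 and 5 above. At an unadjusted p under 0.05 there were 2 in each direction, where 10.3% of all tested genes were lower and 7.92% higher. *Nrf1*, *Gabpa* and *Yy1*, factors that bind promoters of respiratory genes, had log2 fold changes of 0.14, -0.08 and -0.03. The PGC-1-related coactivator *Pprc1* was at 27.7 ± 3.32 CPM in the controls and 39 ± 5.67 CPM in RoraEKO (log2 fold change 0.50, edgeR adjusted p = 0.073). The nuclear receptor *Esrra* was at 24.5, 28.2, 28.4 and 28.3 CPM in the controls and 28.9, 35.9, 37.6 and 36.5 CPM in RoraEKO, which did not overlap (adjusted p = 0.144). The mitochondrial rRNA methyltransferase *Tfb1m* was at 3.04 ± 0.265 and 1.93 ± 0.509 CPM (adjusted p = 0.175). *Ppargc1a*, the coactivator that drives mitochondrial biogenesis in muscle and brown fat, was at 0.304 CPM or less and was not tested.

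Promoter windows from RefSeq (GRCm38.p6, 250 bases before to 50 after a start) were found for 67 of the 105 genes, in 69 windows, and were searched on both strands for 4 strings. The half-site AGGTCA, the core of the element bound by ROR receptors, was in 23.2% of the members' windows and in 16.3% of all 32851 windows. The NRF1 core CGCATGCG was in 11.6% against 1.87%, the ETS core CCGGAAG, bound by GABPA, in 18.8% against 8.86%, and the YY1 core AAGATGGC in 14.5% against 2.75%. Of the 16 members with AGGTCA 15 were tested and 14 were below 0, with a median log2 fold change of -0.16, against 87 of 97 and -0.17 for all tested members. They include *Ndufb1*, which fell, while *Cox7c* and *Ndufv3*, the members past the cutoffs, have none of the 4 strings in theirs. The 100 bases before the start are printed for these 2 and, to show the strings in place, for *Ndufb4* (AGGTCA), *Cycs* and *Ndufa11* (both CGCATGCG), with matched letters in capitals. In *Cycs* and *Ndufa11* the NRF1 core begins 61 and 59 bases before the start, and in *Ndufb4* the half-site begins 54 bases before it. Such a match is a description of letters and not of a bound site. *Sdhc* is not among the 67 genes.
Cox7c, chr13:86046796-86046895, minus strand: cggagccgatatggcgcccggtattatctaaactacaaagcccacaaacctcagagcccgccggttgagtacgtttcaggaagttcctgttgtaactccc
Ndufv3, chr17:31520015-31520114, plus strand: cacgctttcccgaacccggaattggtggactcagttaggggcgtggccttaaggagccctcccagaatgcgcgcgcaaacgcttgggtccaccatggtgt
Ndufb4, chr16:37654369-37654468, minus strand: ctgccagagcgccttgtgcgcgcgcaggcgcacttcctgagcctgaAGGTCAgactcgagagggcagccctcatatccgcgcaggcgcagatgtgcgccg
Cycs, chr6:50566570-50566669, minus strand: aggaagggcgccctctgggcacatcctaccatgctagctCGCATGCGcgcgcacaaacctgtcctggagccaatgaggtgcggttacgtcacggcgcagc
Ndufa11, chr17:56717662-56717761, plus strand: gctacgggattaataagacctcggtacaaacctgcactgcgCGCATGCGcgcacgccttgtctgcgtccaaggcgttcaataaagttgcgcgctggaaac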

How the data were processed

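Messenger RNA of dorsal epidermis was sequenced in 4 control and 4 RoraEKO libraries. Per the submitters' processing notes and the paper, the authors trimmed the reads, aligned them with STAR 2.5.3a to GRCm39, and deposited RSEM expected counts per gene, unscaled. The annotation release and the strand setting of the counting are not given in the sources used here. The deposited expected counts were rounded to whole numbers, filtered with filterByExpr (13147 genes kept), scaled with TMM factors and tested with edgeR 4.0.16 (quasi-likelihood, legacy setting, no covariates) in R 4.3.3, with Benjamini-Hochberg adjustment over all genes tested. SE is that of the difference in mean log2 CPM (prior count 2). Gene symbols, types and coordinates came from GENCODE release 39, which held 54749 of the 55416 identifiers. The symbol rule reads no measured value, but the members and lists were chosen with earlier results of these data known. Named members are those past either call, the 3 highest per length and the extreme fold changes of each complex, core subunits and isoform sets, and 5 more were named because their genotypes did not overlap. The scripts were tested on simulated data. The limit of 3 counts is 0.112 to 0.174 CPM and covers counting error only. DESeq2 1.42.0, other scalings, filters, covariates and leaving out libraries were the alternatives. The values of 1 tested member, counted in all totals, are not reported here or drawn in the heat map.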

Additional observations from a re-analysis of the deposited data

Results flagged for a closer look

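Of 110 groups of 4 libraries, the 2 genotypes of 55 named members, 3 held a library far from the other 3 by Dixon's criterion, a criterion that chance meets in about 1 group in 20. *Sdhd* was at 11.1 CPM in control B1 and at 8.75 to 9.04 CPM in the other controls. *Cox7c* was at 75.2 CPM in control A1 and at 66.3 to 67.6 CPM in the other controls. *Ndufs4* was at 16.7 CPM in RoraEKO A3 and at 13.2 to 13.8 CPM in the other RoraEKO libraries.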

How the results depend on the processing

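Over 18 alternatives no called member changed direction, and *Cox7c* kept an adjusted p under 0.05 in 16, *Ndufv3* in 12, and *Ndufb1* and *Sdhc* in 8 each. Members past the cutoffs were 2 lower and 0 higher, and 0 were lower in the 6 libraries that lack *Xist*, where 147 genes in all were higher and 167 lower, against 302 and 423 with all libraries. At any fold, 4 members were lower, 2 with *Xist* as a covariate, 2 with all genes of at least 1 count and 0 in the 6 libraries. DESeq2 called 1 member higher at any fold, *Ndufa4*, and 478 genes past the cutoffs higher, and the *Xist* covariate left 180. The complex II median of -0.33 was -0.49 when only members of at least 10 CPM were kept. With 1 library left out in turn, members past the cutoffs ranged from 0 to 2 lower and 0 to 1 higher, at any fold from 0 to 3 lower and 0 to 1 higher, all genes higher from 174 to 383, and the complex II median from -0.38 to -0.17. The lowest member counts came without RoraEKO C2, and the cause was not tested. Another scaling moved the median of all genes from -0.04 to -0.01 (DESeq2 and RLE size factors) or -0.10 (library size alone), and 85 to 88 members were below 0 under these. The numbers in the titles are not shared between the genotypes but the first letters are, so the blocked fit was a term for that letter, which left 2 members past the cutoffs and 6 lower at any fold (*Ndufb3* and *Ndufs4* in addition).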

Other observations

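The 17 genes of the tricarboxylic acid cycle and pyruvate dehydrogenase had a median log2 fold change of -0.09, with 14 below 0. None passed the test (lowest adjusted p 0.0941, edgeR quasi-likelihood test). At an unadjusted p under 0.05, 2 were lower and 1 was higher, where 10.3% and 7.92% of all tested genes were. Citrate synthase, *Cs*, was at 271, 274, 264 and 287 CPM in the controls and at 255, 280, 261 and 257 CPM in RoraEKO. *Suclg2*, the GTP-forming subunit of succinyl-CoA ligase, was at 6.89 ± 1.48 and 4.36 ± 0.446 CPM, and *Ogdh*, of the 2-oxoglutarate dehydrogenase complex, at 237 ± 26.1 and 296 ± 25 CPM without overlap (adjusted p = 0.234).

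Of 9 genes of uncoupling and of other entries to ubiquinone, 7 were tested and none passed or had an unadjusted p under 0.05, with a lowest adjusted p of 0.529 by edgeR. The uncoupling protein gene *Ucp1* was at 0.385 CPM or less. *Ucp2* was at 55.9 CPM in control A1 and at 13.1 to 30.6 CPM in the other 7 libraries.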
